A study of Mus musculus with 59 samples.

Results

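The genes Usp11, Tbrg1, Smyd5, Oard1, Syngr3, Minar2 and Tmem106c are 7 of the 51456 genes in the table of prefrontal cortex RNA from mice of the Chd8-S62X line. They were chosen by their normalized counts, because each differs in 1 direction between columns labelled HT and columns labelled WT in the treatments, so the HT and WT values below describe that choice and carry no test. All 7 passed the filter on low values (a mean of at least 10 normalized counts over all libraries), which 16839 genes passed. Usp11, Tbrg1, Smyd5, Syngr3 and Minar2 were lower in HT-labelled libraries, and Oard1 and Tmem106c were higher. Of these 7, the drug comparisons, which did not enter the choice, called Usp11 lower and Minar2 and Syngr3 higher after lithium. None was called after fluoxetine. Of all tested genes 4.41% were called after lithium and 0.0653% after fluoxetine. The choice favours genes of small spread, which pass such a test more easily. Only the Usp11 call held in every alternative fit and without each library in turn.

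HT-labelled groups are given in the labels as heterozygous for the Chd8-S62X allele, with fluoxetine, lithium or vehicle as treatment, and WT-labelled groups as wild type with the same 3 treatments. All were C57BL/6J mice whose prefrontal cortex was taken at postnatal day 25, after exposure through the dam's milk from day 3 to day 24. Each of the 12 groups of genotype, treatment and sex has 5 libraries, except HT fluoxetine females with 4, which gives 29 HT-labelled and 30 WT-labelled libraries, 29 from females and 30 from males. The labels give no dam or litter and do not state that each library is a separate animal, and every p-value is therefore about the spread of the libraries only. Since a dam's milk reaches a whole litter, pups may share a treatment and a litter, and these cannot be told apart. Fluoxetine is a serotonin reuptake inhibitor used as an antidepressant, and lithium is a mood stabiliser. Chd8 encodes an ATP-dependent chromatin remodeller in which loss-of-function variants are linked to autism.

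The targeted gene went against a loss of transcript in the HT label. Chd8 (ENSMUSG00000053754) averaged 5921 ± 384 normalized counts where the label was HT (SD, n = 29) and 3656 ± 309 where it was WT (SD, n = 30). The lowest HT-labelled library, at 5115, stood above the highest WT-labelled library, at 4229. Within each treatment and sex the HT to WT ratio was 1.56 to 1.73, with an exact two-sided permutation p of 0.00794 in each, the smallest that these group sizes allow. The groups are therefore called HT-labelled and WT-labelled throughout, and every direction between them follows the labels. What the S62X allele does to the transcript was not tested.

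The normalized counts summed to 30.3 to 33.7 M per library, for an estimated 25.8 to 36.9 M reads. Xist was at 22805 to 41969 normalized counts in libraries labelled female and at 0 to 136 in those labelled male. Markers of the neighbouring striatum varied: 10 libraries (6 HT-labelled and 4 WT-labelled) stood more than 5 robust SDs above the median of striatal markers, and results are given without them where that ended a call. Markers of cortical excitatory neurons were high in every library, with a mean log2 level of 11.04 to 11.9 in HT-labelled and 11.4 to 11.9 in WT-labelled libraries.

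The 7 genes do not form 1 pathway. Usp11 and Tbrg1 belong to the ubiquitin and p53 system, in which deubiquitinases remove ubiquitin from proteins and so spare them from the proteasome, and ubiquitin ligases such as MDM2 keep p53 low. Smyd5 is a lysine methyltransferase and Oard1 a hydrolase of ADP-ribose, a modification used in DNA damage signalling. Syngr3 is a protein of synaptic vesicles, and Minar2 and Tmem106c encode membrane proteins. On GRCm38 the genes lie on chromosomes X, 9, 6, 17, 17, 18 and 15, in the order in which the opening names them, so only Oard1 and Syngr3 share a chromosome, at 48410014 to 48417266 and 24685092 to 24689955.

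Promoter windows from 250 bases before to 50 after the annotated start show what the start sites of the members share in sequence. Those from RefSeq (GRCm38.p6) are printed for 5 of the 7. They are shown so that the motifs near the starts of genes that follow 1 label can be compared; those of Syngr3 and Minar2 are not printed. Capitals mark matches, on either strand, to 3 short motifs, and no match overlaps another. The ETS core was searched as CCGGAAG. The NFY motif was searched as CCAAT, which reads reversed in 1 of the Usp11 matches. The E-box was searched as CACGTG.
Usp11, chrX:20703659-20703958 (+ strand): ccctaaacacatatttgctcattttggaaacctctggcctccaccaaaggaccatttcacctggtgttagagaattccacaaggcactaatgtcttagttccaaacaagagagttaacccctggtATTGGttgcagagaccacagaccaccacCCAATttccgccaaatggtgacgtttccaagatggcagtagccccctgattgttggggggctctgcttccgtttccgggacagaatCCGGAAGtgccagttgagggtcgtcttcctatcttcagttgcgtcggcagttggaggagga
Tbrg1, chr9:37657263-37657562 (- strand): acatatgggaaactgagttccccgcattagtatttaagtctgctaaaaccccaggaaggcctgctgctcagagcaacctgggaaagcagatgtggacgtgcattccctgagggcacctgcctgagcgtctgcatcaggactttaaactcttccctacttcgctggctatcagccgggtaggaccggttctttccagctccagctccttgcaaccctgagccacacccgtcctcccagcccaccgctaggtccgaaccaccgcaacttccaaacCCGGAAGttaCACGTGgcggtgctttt
Smyd5, chr6:85431726-85432025 (+ strand): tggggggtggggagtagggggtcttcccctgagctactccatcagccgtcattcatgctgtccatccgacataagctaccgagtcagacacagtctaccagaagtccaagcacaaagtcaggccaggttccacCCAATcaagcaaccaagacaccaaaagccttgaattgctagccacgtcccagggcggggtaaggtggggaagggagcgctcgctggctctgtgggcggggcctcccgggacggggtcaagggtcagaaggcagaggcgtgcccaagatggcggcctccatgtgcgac
Oard1, chr17:48409750-48410049 (+ strand): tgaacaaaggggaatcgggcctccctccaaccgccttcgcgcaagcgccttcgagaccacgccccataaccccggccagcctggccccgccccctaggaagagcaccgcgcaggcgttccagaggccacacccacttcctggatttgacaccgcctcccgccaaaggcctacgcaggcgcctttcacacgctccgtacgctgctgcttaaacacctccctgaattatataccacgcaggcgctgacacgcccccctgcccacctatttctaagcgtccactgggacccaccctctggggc
Tmem106c, chr15:97963979-97964278 (+ strand): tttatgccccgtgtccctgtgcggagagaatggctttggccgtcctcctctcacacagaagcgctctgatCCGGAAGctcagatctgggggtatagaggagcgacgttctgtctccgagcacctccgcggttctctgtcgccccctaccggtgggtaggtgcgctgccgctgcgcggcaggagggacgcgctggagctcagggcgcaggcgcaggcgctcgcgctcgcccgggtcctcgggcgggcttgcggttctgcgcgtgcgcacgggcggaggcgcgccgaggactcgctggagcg

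The ETS core lay in the windows of Usp11, Tbrg1 and Tmem106c, and 8.86% of all 32851 promoter windows hold it. Of these, Usp11 and Tbrg1 were lower and Tmem106c was higher in HT-labelled libraries, so the motif did not go with 1 direction. CCAAT occurred at 2 places in Usp11 and 1 in Smyd5, against 37.4% of all windows with at least 1. CACGTG occurred in Tbrg1, 3 bases after its ETS core, and in 7.15% of all windows. Neither the exact NRF1 palindrome (0.971% of all windows) nor TATAAA (13.6%) lay in any of the 5 windows. The window of a second Oard1 start held none of the 5 motifs as searched. Forms of the palindrome with a base changed were not searched, and the printed Tmem106c and Oard1 windows hold such forms. The search therefore cannot tell whether an NRF1 site is absent. The 5 printed windows held 8 (Usp11) to 38 (Tmem106c) CpG dinucleotides, against a median of 7 and quartiles of 3 and 20 over all windows.

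**Figure D1:**
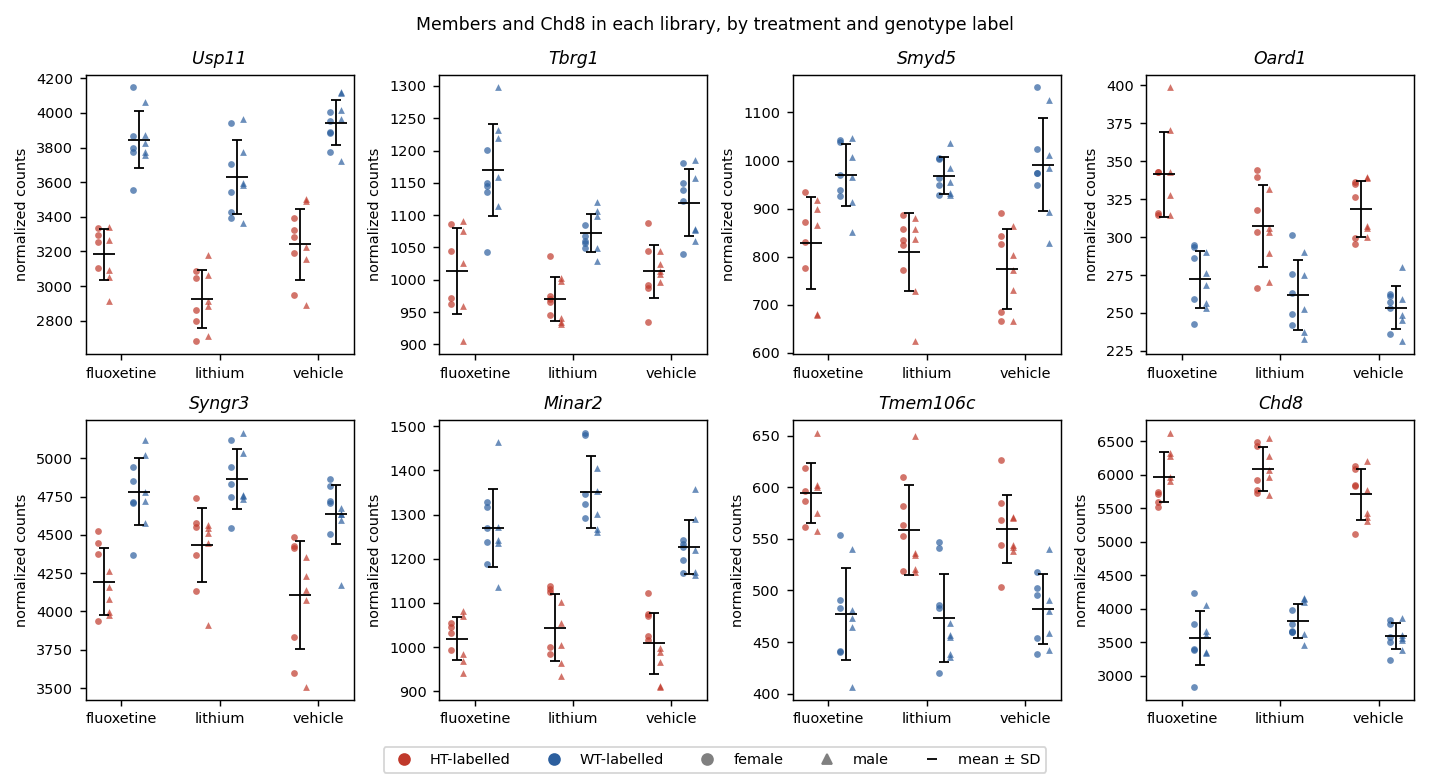
Normalized counts of the 7 genes and of Chd8 in each of the 59 libraries (y axis) by treatment (x axis), with HT-labelled libraries in red left of WT-labelled libraries in blue, circles for females, triangles for males and bars for mean ± SD. Every mean of Usp11, Tbrg1, Smyd5, Syngr3 and Minar2 is lower in HT-labelled libraries within a treatment, every mean of Oard1 and Tmem106c is higher, and the 2 Chd8 clouds do not meet.

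Usp11 (ENSMUSG00000031066, chromosome X, 20703906 to 20720539, + strand) encodes a deubiquitinase that acts in DNA repair and on tau. Under fluoxetine it was at 2916 to 3338 normalized counts (median 3254) in HT-labelled and at 3556 to 4148 (median 3814) in WT-labelled libraries. Under lithium it was at 2681 to 3180 (median 2899) in HT-labelled and at 3367 to 3965 (median 3587) in WT-labelled libraries. Under vehicle it was at 2890 to 3502 (median 3254) in HT-labelled and at 3722 to 4120 (median 3958) in WT-labelled libraries. HT-labelled and WT-labelled libraries were apart in all 3 treatments. Over all treatments they met, since WT-labelled lithium libraries reached below the highest HT-labelled vehicle libraries. The averaged difference of HT minus WT was -0.29 ± 0.021 (SE) on the log2(value + 1) scale, used for every difference here.

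Tbrg1 (ENSMUSG00000011114, chromosome 9, 37648763 to 37657312, - strand) encodes NIAM, a nuclear partner of ARF that restrains growth and favours p53. Fluoxetine libraries held 905 to 1091 normalized counts (median 1026) in HT-labelled and 1043 to 1298 (median 1154) in WT-labelled libraries. Lithium libraries held 932 to 1037 (median 967) in HT-labelled and 1029 to 1120 (median 1064) in WT-labelled libraries. Vehicle libraries held 934 to 1088 (median 1011) in HT-labelled and 1040 to 1185 (median 1130) in WT-labelled libraries. The ranges met in each treatment, and the averaged difference of -0.16 ± 0.019 was the smallest of the 7 with that of Syngr3. Its 3' side overlaps Siae, a sialic acid acetylesterase gene on the opposite strand. Siae averaged 858 normalized counts in HT-labelled and 892 in WT-labelled libraries, a difference of -0.055 ± 0.043 that was not called (adjusted p = 0.445, limma). The library kit keeps strand, but whether counting used it is not given in the sources used here.

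Smyd5 (ENSMUSG00000033706, chromosome 6, 85431989 to 85446435, + strand) encodes a SET and MYND domain lysine methyltransferase. Its fluoxetine values were 678 to 935 normalized counts (median 865) in HT-labelled and 852 to 1046 (median 968) in WT-labelled libraries. Its lithium values were 624 to 886 (median 836) in HT-labelled and 927 to 1037 (median 959) in WT-labelled libraries. Its vehicle values were 666 to 890 (median 788) in HT-labelled and 829 to 1152 (median 980) in WT-labelled libraries. Only under lithium did its HT-labelled and WT-labelled libraries stand apart, although its mean difference there, -0.26 ± 0.061, was not larger than that under vehicle, -0.36 ± 0.061. Its spread was the widest of the 7 relative to its level, up to an SD of 119 around a mean of 808 in HT fluoxetine males.

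Oard1 (ENSMUSG00000040771, chromosome 17, 48410014 to 48417266, + strand) encodes TARG1, a macrodomain enzyme that removes ADP-ribose from acidic residues of proteins. With fluoxetine, it was at 315 to 399 normalized counts (median 343) in HT-labelled and at 243 to 295 (median 272) in WT-labelled libraries. With lithium, it was at 266 to 344 (median 305) in HT-labelled and at 233 to 301 (median 258) in WT-labelled libraries. With vehicle, it was at 296 to 339 (median 317) in HT-labelled and at 231 to 280 (median 255) in WT-labelled libraries. It was higher in HT-labelled libraries without overlap under fluoxetine and vehicle, and with overlap under lithium. Its averaged difference was 0.29 ± 0.030.

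Syngr3 (ENSMUSG00000007021, chromosome 17, 24685092 to 24689955, - strand) encodes synaptogyrin 3, a membrane protein of synaptic vesicles. In fluoxetine libraries it was at 3939 to 4523 normalized counts (median 4159) in HT-labelled and at 4367 to 5123 (median 4750) in WT-labelled libraries. In lithium libraries it was at 3912 to 4744 (median 4530) in HT-labelled and at 4548 to 5166 (median 4798) in WT-labelled libraries. In vehicle libraries it was at 3506 to 4483 (median 4185) in HT-labelled and at 4171 to 4869 (median 4658) in WT-labelled libraries. The ranges met in every treatment. The averaged difference was -0.17 ± 0.022.

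Minar2 (ENSMUSG00000050875, chromosome 18, 59062248 to 59076962, + strand) encodes a small membrane protein named for its relation to a NOTCH2-associated receptor, needed for hearing in mice and humans. Under fluoxetine it was at 941 to 1082 normalized counts (median 1032) in HT-labelled and at 1137 to 1465 (median 1256) in WT-labelled libraries. Under lithium it was at 935 to 1139 (median 1030) in HT-labelled and at 1261 to 1484 (median 1335) in WT-labelled libraries. Under vehicle it was at 910 to 1123 (median 1008) in HT-labelled and at 1163 to 1357 (median 1223) in WT-labelled libraries. HT-labelled and WT-labelled libraries were apart in each treatment, and over all 59 libraries they met only between 1137 and 1139. Its averaged difference of -0.32 ± 0.022 was the largest of the 7 in size.

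Tmem106c (ENSMUSG00000052369, chromosome 15, 97964200 to 97970275, + strand) encodes a relative of the lysosomal protein TMEM106B. After fluoxetine it was at 558 to 653 normalized counts (median 596) in HT-labelled and at 406 to 554 (median 477) in WT-labelled libraries. After lithium it was at 518 to 649 (median 545) in HT-labelled and at 420 to 547 (median 463) in WT-labelled libraries. After vehicle it was at 504 to 626 (median 556) in HT-labelled and at 438 to 541 (median 485) in WT-labelled libraries. HT-labelled libraries stood above WT-labelled ones without overlap under fluoxetine only. Its averaged difference was 0.26 ± 0.029.

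With both sexes pooled, HT-labelled and WT-labelled libraries did not overlap for 4 of 7 members under fluoxetine (0.095% of all tested genes), 3 of 7 under lithium (0.0594%) and 3 of 7 under vehicle (0.0416%). Usp11 and Minar2 were in all 3 of these counts. Over all 59 libraries none of the 7 was without overlap, and Chd8 was the 1 gene of those tested that was (0.00594%). Within a single sex the counts were 4 in fluoxetine females (3.68% of tested genes), 6 in fluoxetine males (1.44%), 4 in lithium females (1.07%), 6 in lithium males (1.37%), 5 in vehicle females (0.992%) and 4 in vehicle males (1.03%). These counts follow from how the genes were chosen. By the size of the averaged difference the members ranked between 402 (Minar2) and 1947 (Tbrg1) among the 16839 tested genes, so many genes outside the 7 had a larger mean difference.

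**Figure D2:**
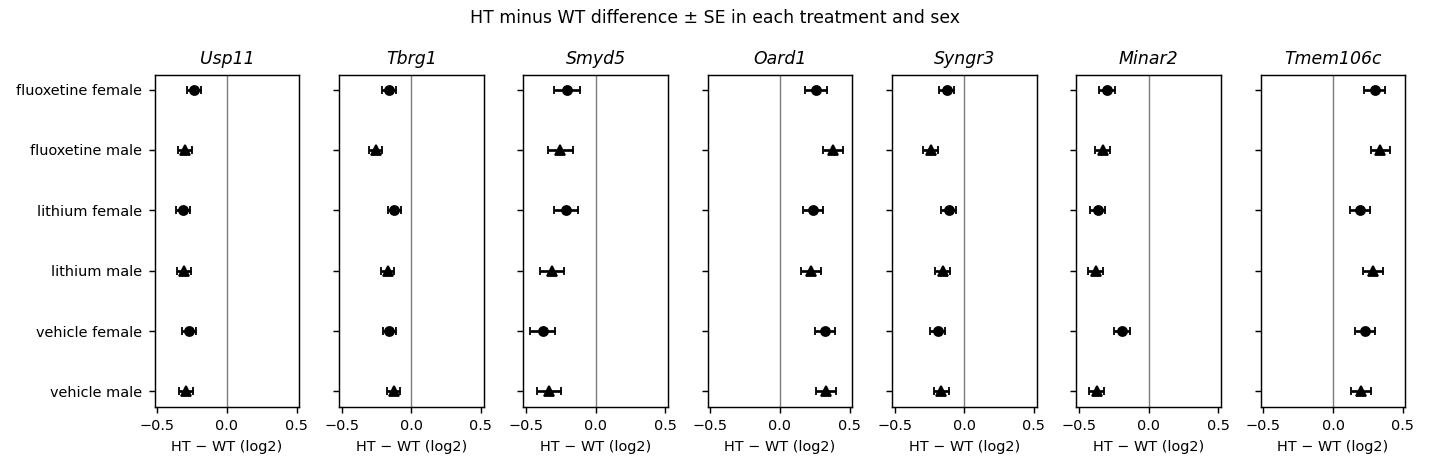
HT minus WT difference on the log2(value + 1) scale (x axis) ± SE for each gene in each treatment and sex (y axis), circles for females and triangles for males. All 6 points of Usp11, Tbrg1, Smyd5, Syngr3 and Minar2 are below 0, and all 6 of Oard1 and Tmem106c are above 0.

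The size of the difference varied among treatments and sexes within the members. Minar2 differed by -0.19 ± 0.054 in vehicle females and by -0.37 ± 0.054 in vehicle males, the widest split between sexes in 1 treatment for this gene. In vehicle females it was at 1026, 1076, 1123, 1017 and 1071 normalized counts in the HT-labelled libraries, against 1168, 1196, 1233, 1242 and 1226 in the WT-labelled libraries. In vehicle males it was at 999, 967, 910, 913 and 990 in the HT-labelled libraries, against 1170, 1357, 1290, 1163 and 1220 in the WT-labelled libraries. The sexes differed mainly in the HT-labelled libraries, whose male values all lay below the female ones. Usp11, the X-linked member, was the steadiest, with differences of -0.24 ± 0.053 in fluoxetine females to -0.32 ± 0.050 in lithium females. Smyd5 ranged from -0.21 ± 0.092 in fluoxetine females to -0.38 ± 0.087 in vehicle females. Oard1 ranged from 0.22 ± 0.073 in lithium males to 0.38 ± 0.073 in fluoxetine males.

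The order of the 6 genotype and treatment means placed every HT-labelled mean on 1 side of every WT-labelled mean for all 7 genes. For Usp11 the order, low to high, was HT lithium (2923 ± 168 normalized counts, SD), HT fluoxetine (3184 ± 148) and HT vehicle (3241 ± 206), then WT lithium (3629 ± 215), WT fluoxetine (3844 ± 165) and WT vehicle (3944 ± 131). Within either genotype, the lithium mean was more than 1 SD below the next, and fluoxetine and vehicle were within 1 SD of each other. For Minar2 it was HT vehicle (1009 ± 69.1), HT fluoxetine (1019 ± 49.1) and HT lithium (1044 ± 75.8), then WT vehicle (1227 ± 60.6), WT fluoxetine (1269 ± 88.8) and WT lithium (1351 ± 81.0). Here the step between genotypes was the single one larger than the SD. The same held for Smyd5 and Oard1, while Tmem106c and Tbrg1 each had 1 within-genotype step above the SD. For Tmem106c it lay between HT fluoxetine (595 ± 29.4) and HT vehicle (559 ± 33.0), and for Tbrg1 between HT lithium (970 ± 34.1) and HT vehicle (1013 ± 41.2). No step exceeded the SD for Syngr3, nor did the step between genotypes for Tbrg1.

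**Figure D3:**
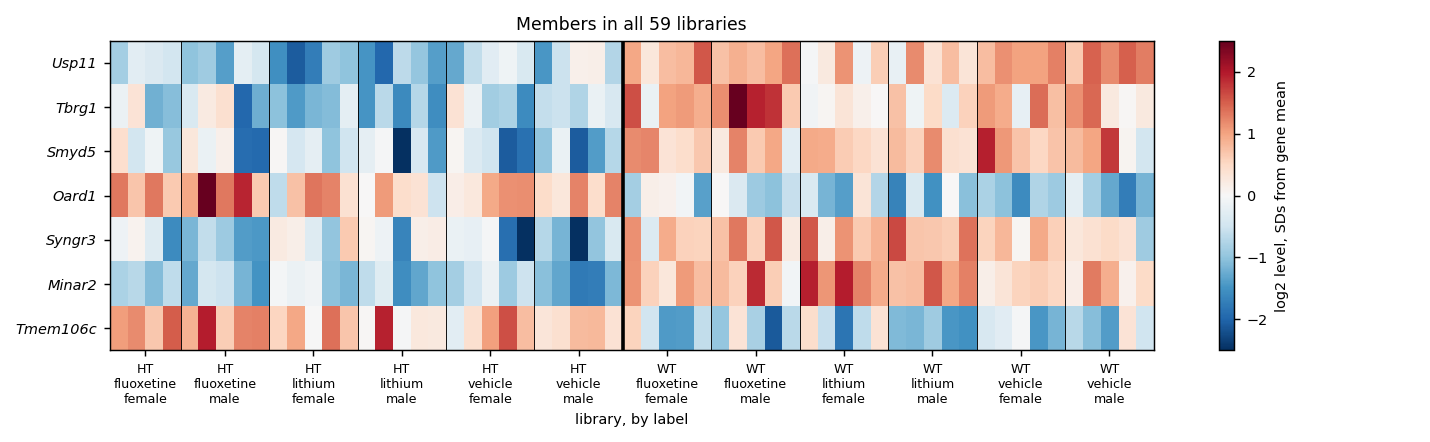
Level of the 7 genes (rows) in all 59 libraries (columns), as SDs of the log2 value from the gene's mean, with HT-labelled groups left of the thick line and WT-labelled groups right of it. Blue is low and red is high; Usp11, Tbrg1, Smyd5, Syngr3 and Minar2 change from mostly blue to mostly red at the line, and Oard1 and Tmem106c the other way.

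Single libraries did not all follow their label. Setting each gene's boundary at the midpoint of its 2 geometric genotype means, 13 HT-labelled and 15 WT-labelled libraries had all 7 members on the side of their label. The lowest number was 4 of 7, in 2 HT-labelled and 2 WT-labelled libraries. Minar2 was on the side of the label in 29 of 29 HT-labelled and 29 of 30 WT-labelled libraries. Syngr3, the weakest in HT-labelled libraries, was so in 22 of 29 of them and in 28 of 30 WT-labelled libraries. The boundaries were set on the same libraries, so these counts describe them and classify nothing.

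Per kilobase of annotated exon, Syngr3 had the highest mean level of the 7, at 2177 normalized counts per kilobase, followed by Usp11 at 732. Tbrg1 (272), Minar2 (216), Tmem106c (215), Oard1 (187) and Smyd5 (152) lay within a narrower range. High and low genes therefore occurred among those lower in HT-labelled libraries. Both genes that were higher there, Tmem106c and Oard1, lay between Smyd5 and Minar2, which were lower there.

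Lithium was compared with vehicle over both genotypes and sexes, a contrast that did not choose the genes. Usp11 was lower after lithium in both genotypes, and Minar2 and Syngr3 were higher, so these 3 of 7 members were called by limma (adjusted p below 0.05 over all tested genes), against 4.41% of all tested genes. The members had a smaller error than most genes, with a median SE of 0.027 against 0.051 over all tested genes, so a small difference passed more easily. The choice used these same libraries and favours genes of small spread, so the 3 of 7 is not independent of it. Their median absolute difference, 0.062, was close to that of all tested genes, 0.054.

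Usp11 fell most after lithium. In females it was at 2859, 2681, 2796, 3089 and 3049 normalized counts in HT lithium libraries, against 2948, 3192, 3325, 3395 and 3286 in HT vehicle libraries. In males it was at 2884, 2714, 3180, 3062 and 2913 in HT lithium libraries, against 2890, 3223, 3491, 3502 and 3154 in HT vehicle libraries. Every HT vehicle female lay above the HT lithium female median of 2859, all but 1 HT vehicle male lay above the HT lithium male median of 2913, and the ranges overlapped in both sexes. In WT females it was at 3427, 3544, 3942, 3391 and 3707 after lithium, against 3775, 3951, 3887, 3884 and 4007 after vehicle. In WT males it was at 3367, 3965, 3593, 3775 and 3581 after lithium, against 3722, 4113, 3964, 4120 and 4016 after vehicle. Lithium means were thus below vehicle means in all 4 pairs of groups. The averaged difference was -0.13 ± 0.025 (adjusted p = 0.000834, limma), and it remained called in each alternative fit and without each library in turn.

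Minar2 rose by 0.094 ± 0.027 (adjusted p = 0.0316, limma) after lithium. In WT-labelled libraries it averaged 1351 ± 81.0 normalized counts after lithium and 1227 ± 60.6 after vehicle (SD, n = 10 each). In HT-labelled libraries it averaged 1044 ± 75.8 after lithium and 1009 ± 69.1 after vehicle (SD, n = 10 each). The difference was 0.14 ± 0.038 in WT-labelled and 0.049 ± 0.038 in HT-labelled libraries, neither called within its genotype. The call was lost with no filter (adjusted p = 0.0702) and without any 1 of 11 libraries, with an adjusted p of at most 0.0578 (limma). These were HT lithium female replicates 1 and 2, HT lithium male replicates 1 and 2, HT vehicle female replicate 4, HT vehicle male replicates 3 and 4, WT lithium female replicates 1 and 3, WT lithium male replicate 3 and WT vehicle male replicate 4.

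Syngr3 rose by 0.092 ± 0.027 (adjusted p = 0.0316, limma) after lithium. It averaged 4436 ± 243 normalized counts in HT lithium and 4106 ± 352 in HT vehicle libraries (SD, n = 10 each). It averaged 4865 ± 196 in WT lithium and 4635 ± 193 in WT vehicle libraries (SD, n = 10 each). The call was lost without the 10 libraries of high striatal markers (0.084, adjusted p = 0.117, limma) and without any 1 of 7 libraries, with an adjusted p of at most 0.0602. These were HT vehicle female replicates 4 and 5, HT vehicle male replicate 3, WT lithium female replicate 1, WT lithium male replicate 1, WT vehicle female replicate 3 and WT vehicle male replicate 5.

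The other 4 members were not called after lithium. Tbrg1 differed by -0.062 ± 0.023 (adjusted p = 0.121, limma), Smyd5 by 0.018 ± 0.043, Oard1 by -0.0057 ± 0.037 and Tmem106c by -0.016 ± 0.035. Cortical excitatory neuron markers had a median lithium difference of 0.11, and none of the 7 markers was called. Meningeal markers had a median lithium difference of -0.33 with 1 of 6 called, the only marker of the 9 lists called after lithium, and olfactory bulb markers one of -0.27 with none of 5 called. The part of the meningeal markers in the members' lithium differences was not tested. With the mean log2 level of the olfactory bulb markers as a covariate, Usp11 differed by -0.13 (adjusted p = 0.000184), Minar2 by 0.086 (adjusted p = 0.0143) and Syngr3 by 0.085 (adjusted p = 0.0180, limma). With the mean log2 level of the excitatory markers as a covariate, Usp11 differed by -0.12 (adjusted p = 7.04e-05), Minar2 by 0.079 (adjusted p = 0.0247) and Syngr3 by 0.075 (adjusted p = 0.0170, limma), and Tbrg1 by -0.071 (adjusted p = 0.0281). Bulk RNA cannot tell fewer cells of a type from less RNA per cell.

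**Figure D4:**
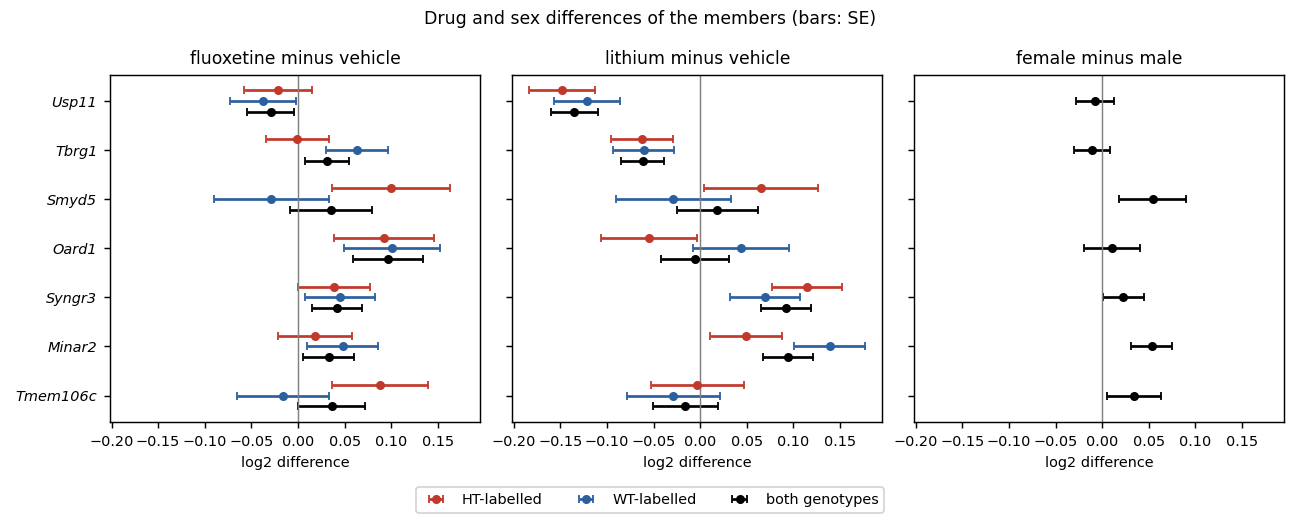
Differences on the log2(value + 1) scale (x axis) ± SE for fluoxetine minus vehicle, lithium minus vehicle and female minus male, by gene (y axis), in HT-labelled libraries (red), WT-labelled libraries (blue) and both (black). After lithium, Usp11 is below 0 at -0.13 and Minar2 and Syngr3 are above 0 at 0.094 and 0.092; after fluoxetine all SE bars of both genotypes together lie within 0.15 of 0.

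Within HT-labelled libraries alone, lithium called 1 of 7 members, Usp11 (-0.15 ± 0.035, adjusted p = 0.04999, limma), against 0.238% of all tested genes. That p lies at the threshold, and 42 of the 59 fits without 1 library ended the call, with an adjusted p of at most 0.1097. Within WT-labelled libraries none of 7 was called, 2 had an unadjusted p below 0.05, and 0.214% of tested genes were called. There Minar2 (0.14 ± 0.038, adjusted p = 0.0965) and Usp11 (-0.12 ± 0.035, adjusted p = 0.125, limma) came nearest. The genotype difference of each member with lithium less that with vehicle uses the contrast that chose the genes. It was -0.099 ± 0.073 for Oard1, -0.090 ± 0.054 for Minar2, -0.027 ± 0.050 for Usp11 and -0.0019 ± 0.047 for Tbrg1. It was 0.094 ± 0.087 for Smyd5, 0.045 ± 0.053 for Syngr3 and 0.026 ± 0.070 for Tmem106c.

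Set against WT-labelled vehicle libraries, the HT lithium values differed in how far they lay. Usp11 was at 2681 to 3180 normalized counts in HT lithium libraries and at 3722 to 4120 in WT vehicle libraries, and the lithium difference in HT-labelled libraries had the same sign as the HT minus WT difference. Minar2 was at 935 to 1139 in HT lithium libraries and at 1163 to 1357 in WT vehicle libraries, again without overlap. Syngr3 was at 3912 to 4744 in HT lithium libraries and at 4171 to 4869 in WT vehicle libraries, and these ranges overlapped. The lithium and genotype differences of Minar2 and Syngr3 had opposite signs. Neither lithium difference was called within HT-labelled libraries (Minar2 0.049, adjusted p = 0.718, and Syngr3 0.11, adjusted p = 0.218, limma). The genotype differences chose the genes, and both kinds of difference use the HT vehicle libraries, so these signs are a description only.

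Fluoxetine was compared with the same vehicle libraries, so the drug contrasts share them. None of the 7 members was called by limma, against 0.0653% of all tested genes, and 1 had an unadjusted p below 0.05. That was Oard1, at 341 ± 28.2 normalized counts in HT fluoxetine and 319 ± 18.4 in HT vehicle libraries, and at 272 ± 18.7 in WT fluoxetine and 254 ± 14.1 in WT vehicle libraries (SD, n = 9 in HT fluoxetine and 10 in the others). Its averaged difference was 0.097 ± 0.037 (adjusted p = 0.302, limma). The other 6 differed by -0.029 (Usp11) to 0.042 (Syngr3), with an SE of at most 0.044. Within HT-labelled libraries (0% of tested genes called, 857 with an unadjusted p below 0.05) and within WT-labelled libraries (0.19% called) no member was called, and none had an unadjusted p below 0.05.

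The sexes were compared over all treatments. None of the 7 members was called between females and males, against 0.154% of tested genes, and 1 had an unadjusted p below 0.05. That was Minar2, at 1178 ± 140 normalized counts in 29 females and 1134 ± 163 in 30 males, a difference of 0.053 ± 0.022 (adjusted p = 0.523, limma). Usp11, on the X chromosome, averaged 3458 ± 400 in females and 3473 ± 427 in males, a difference of -0.0080 ± 0.021. No drug response of a member was called as different between the sexes by limma (0 of 7 for either drug, none with an unadjusted p below 0.05). Of all tested genes 0% were called, and 600 (fluoxetine) and 438 (lithium) had an unadjusted p below 0.05.

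No marker of the 9 cell type and region lists was called in HT minus WT. All 7 cortical excitatory neuron markers had differences below 0 in HT minus WT, with a median of -0.12. All 5 olfactory bulb markers had differences above 0, with a median of 0.29. The mean log2 level of that list spanned 4.99 to 10.97 in HT-labelled and 4.76 to 10.3 in WT-labelled libraries. All 7 oligodendrocyte markers and all 5 endothelial markers also had differences above 0, with medians of 0.18 and 0.061. The medians were 0.17 for the 10 striatal, 0.054 for the 6 meningeal and 0.043 for the 6 astrocyte markers, with 1 marker below 0 in each of these lists. They were -0.0079 for inhibitory neuron and -0.024 for microglial markers. With the excitatory level as a covariate, the HT minus WT difference was -0.23 for Smyd5 and -0.14 for Syngr3. It was -0.30 for Minar2, -0.15 for Tbrg1, -0.32 for Usp11, 0.28 for Oard1 and 0.25 for Tmem106c. Leaving out the 10 striatum-rich libraries gave differences of -0.18 (Tbrg1) to -0.32 (Minar2) for the lower genes, 0.30 for Oard1 and 0.27 for Tmem106c.

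Within groups, the members fell into those that varied together and those that did not. After each group's mean was removed from the log2 values, 5 of the 21 pairs correlated over the 59 libraries (permutation within groups, two-sided, p adjusted over the 21 pairs), with a raw p for Pearson's r of at most 0.00414. Smyd5 and Syngr3 had Pearson's r = 0.60 (adjusted p = 0.000315) and Spearman's rho = 0.49 (adjusted p = 0.00336, permutation), with r = 0.56 without the 2 libraries of most extreme Smyd5. Tbrg1 and Syngr3 had r = 0.56 (adjusted p = 0.00021, raw p = 1e-05, the smallest that 100000 permutations can give) and rho = 0.57 (adjusted p = 0.00042), with r = 0.58 without the 2 libraries of most extreme Tbrg1. Tbrg1 and Smyd5 had r = 0.52 (adjusted p = 0.00383, permutation) and rho = 0.49 (adjusted p = 0.00625), with r = 0.45 without those 2. Smyd5 and Minar2 had r = 0.41 (adjusted p = 0.0174, permutation) and rho = 0.41 (adjusted p = 0.0160), with r = 0.34 without 2. Usp11 and Smyd5 had r = -0.54 (adjusted p = 0.00035, permutation) and rho = -0.54 (adjusted p = 0.00063), with r = -0.58 without 2. None of the 11 pairs with Oard1 or Tmem106c passed. Marker levels varied within groups as well. Smyd5 had r = 0.80 with the mean log2 level of excitatory neuron markers and r = -0.71 with that of olfactory bulb markers. These r are over the same 59 libraries and are given as a description. Syngr3 had r = 0.63 with the excitatory and r = -0.47 with the olfactory bulb markers, Minar2 had 0.55 and -0.59, and Tbrg1 had 0.45 and -0.35. Usp11 had the opposite signs, r = -0.68 and r = 0.52. With astrocyte markers r was -0.69 for Smyd5, -0.61 for Syngr3, -0.54 for Minar2, -0.38 for Tbrg1 and 0.37 for Usp11. With meningeal markers r was -0.63 for Smyd5, -0.47 for Syngr3, -0.24 for Minar2, -0.29 for Tbrg1 and 0.29 for Usp11. The part of these markers in the correlated pairs was not tested.

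**Figure D5:**
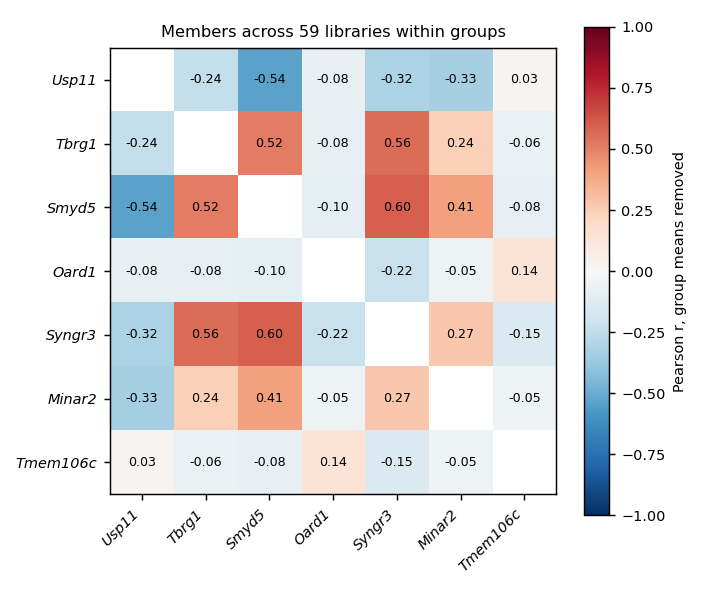
Pearson's r between each pair of the 7 genes over 59 libraries after the mean of each group was removed from the log2 values (blue for negative, red for positive). Smyd5, Syngr3, Tbrg1 and Minar2 are positive among themselves, Usp11 is negative with each of them, and pairs with Oard1 or Tmem106c lie between -0.22 and 0.14.

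The genes most like each member within groups were read from the same values, as the 3 highest r over 59 libraries among all tested genes. For Smyd5 they were Sept3 (r = 0.87, rho = 0.86), Hpcal4 (0.87 and 0.86) and Kif5c (0.86 and 0.83), and Kif5c encodes a neuronal kinesin. For Syngr3 they were Reep1 (r = 0.84, rho = 0.74), 1110032F04Rik (0.83 and 0.70) and Zwint (0.82 and 0.74). For Usp11 they were Serinc5 (r = 0.79, rho = 0.81), Filip1 (0.79 and 0.81) and Grik2 (0.79 and 0.79), and Grik2 encodes a kainate receptor subunit. For Minar2 they were Nlgn1 (r = 0.69, rho = 0.68), Eid1 (0.68 and 0.71) and Gabra4 (0.67 and 0.62), where Nlgn1 encodes a postsynaptic adhesion protein and Gabra4 a GABA receptor subunit. For Tbrg1 they were Magee1 (r = 0.65, rho = 0.61), Ptcd2 (0.64 and 0.65) and Prkaca (0.64 and 0.56). For Oard1 they were Nudt22 (r = 0.53, rho = 0.47), Rpa3 (0.52 and 0.48) and Lef1 (0.50 and 0.49), and for Tmem106c they were Etnppl (0.53 and 0.49), Tprkb (0.52 and 0.43) and Cst3 (0.50 and 0.56). The highest r of Oard1 and Tmem106c were below those of the other members. These r were picked as the highest of many and are a description.

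Of 41 genes listed as relatives or known partners of the members, 39 passed the filter. In HT minus WT, 1 rose and none fell, against 7.98% of all tested genes called in either direction, and the median difference of the list was 0.0099, with 0.0016 over all genes. The riser was Kmt5c, an H4K20 methyltransferase listed beside Smyd5, at 596 normalized counts in HT-labelled and 540 in WT-labelled libraries (0.13 ± 0.042, adjusted p = 0.0355, limma). That call was lost in 16 of the 59 fits without 1 library (adjusted p at most 0.0601, limma). It was also lost in 3 of 10 alternatives (adjusted p at most 0.617, limma). Among these were no filter (adjusted p = 0.0684) and the excitatory level as a covariate (0.075, adjusted p = 0.154, limma). None of the 39 was called for fluoxetine, lithium or sex.

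Relatives of the members did not share their differences at the threshold. Mapt, which encodes tau, a substrate of USP11, differed by -0.070 (adjusted p = 0.0582), and Trp53, which encodes p53, by -0.085 (adjusted p = 0.0992, limma). Syp, which encodes synaptophysin of the vesicle membrane, differed by -0.092 (adjusted p = 0.0750, limma). Macrod1, another macrodomain hydrolase, differed by 0.13 (adjusted p = 0.0622), and Grn, which encodes lysosomal progranulin, by -0.029 (adjusted p = 0.300, limma). Mtor, a kinase listed beside Minar2, differed by 0.059 (adjusted p = 0.315, limma). These 6 were the listed genes of smallest p for their member.

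The nearest tested gene on each side of each member gave 14 neighbours. Of these, 2 were called in HT minus WT, against 7.98% of all tested genes, and so few calls say little about the neighbours. Nfya, a subunit of the CCAAT-binding factor NFY, starts 108 bp from Oard1 on the opposite strand, and the Oard1 window printed above covers both starts. Nfya averaged 1202 normalized counts in HT-labelled and 1108 in WT-labelled libraries (0.11 ± 0.037, adjusted p = 0.0497, limma), the same direction as Oard1. That call was lost in 43 of the 59 fits without 1 library, with an adjusted p of at most 0.0857 (limma). It was also lost in 4 of 10 alternatives (adjusted p at most 0.748, limma). Among these were no filter (adjusted p = 0.0926) and the excitatory level as a covariate (0.070, adjusted p = 0.199, limma). Vwa5a, 1061 kb from Tbrg1, averaged 457 in HT-labelled and 409 in WT-labelled libraries (0.15 ± 0.042, adjusted p = 0.0207, limma), opposite to Tbrg1. The Vwa5a call was lost in 2 of 10 alternatives (adjusted p at most 0.725, limma), 1 of them that covariate (0.084, adjusted p = 0.0697). The neighbours of Usp11, Cdk16 and Araf, differed by -0.023 ± 0.021 and -0.020 ± 0.017, and neither was called.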

How the data were processed

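Per the labels' protocols, poly(A) RNA of prefrontal cortex was sequenced with a kit that keeps strand. The authors deposited 1 table of a normalized signal, with counts divided by a factor per library; the tools used were DESeq2 1.19.11, Salmon 0.11.2 and R 3.6.0 with the build GRCm38, per the submitters' processing notes, which give them no role or order, and filters are not given in the sources used here. Values are not whole, so no count model was fitted: limma 3.58.1 (R 4.3.3, statmod 1.5.0) was fitted to log2(value + 1) of 16839 genes with a mean of at least 10, with a mean for each of 12 groups, trend and robust shrinkage, and Benjamini-Hochberg adjustment over all tested genes, with calls at 0.05. The scale understates changes of low genes. The most frequent low value (0.854 to 1.31) was taken as 1 read. Errors are SE for differences and SD for levels.

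The members, lists and tests were chosen with earlier results of these data known. Named genes were the members and Chd8, of the listed genes those called in HT minus WT or of smallest p for a member, the nearest tested neighbours and the 3 genes of highest correlation. Positions come from GENCODE M21. The fit was tested on simulated data. Alternatives changed the filter, the pseudocount, the shrinkage, the scaling (trimmed mean of M values, TMM), the libraries, a replicate block and marker covariates; that of excitatory neuron markers was added after seeing the data.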

Additional observations from a re-analysis of the deposited data

Results flagged for a closer look

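In 3 of the 84 groups of libraries checked, 1 per gene and group, a single library stood far from the rest, and chance alone flags about 1 in 20 groups. Tmem106c in HT lithium male replicate 2 was at 649 normalized counts, against 518 to 536 in the other HT lithium males, a gap of 0.862 of the group's range. Syngr3 in HT lithium male replicate 3 was at 3912, against 4448 to 4567 in the others, a gap of 0.818. Syngr3 in WT vehicle male replicate 5 was at 4171, against 4599 to 4675 in the others, a gap of 0.848. What sets these libraries apart was not tested.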

How the results depend on the processing

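The direction of each of the 7 members in HT minus WT, on which they were chosen, held in every alternative. In each fit all combinations of gene, treatment and sex kept their gene's side (100%), 42 of them except with vehicle libraries alone. Chd8 was checked only without 1 library at a time, and its groups stayed apart in all 6 strata. Leaving out a library cannot make groups that are apart meet, so that outcome was fixed. The count of genes called in HT minus WT, 1344, was 877 with no filter and 6 with vehicle libraries alone. For lithium over both genotypes, 3 members were called, 1 with no filter (Usp11) and 1 to 3 without 1 library; it was 1 without HT vehicle female replicate 4, HT vehicle male replicate 3 or WT lithium female replicate 1. Syngr3 also lost its call with the libraries of the contrast alone (adjusted p = 0.0565) and the striatal covariate (adjusted p = 0.0517, limma). In HT-labelled libraries the count of 1 was 0 without trend and robust shrinkage, with no filter, with the libraries of the contrast alone and without the 10 striatum-rich libraries, and 0 to 1 without 1 library. In WT-labelled libraries the count of 0 was 1 with the replicate block (Usp11, adjusted p = 0.0452, limma), 1 with the olfactory bulb covariate and 2 with the excitatory covariate. The cause was not tested. Replicate numbers were not taken as pairs, because the labels do not say that they pair libraries. Same-numbered libraries of different groups were nevertheless somewhat more alike after group means were removed. Their r was over 0.1 in 123 of 319 pairs, against 307 of 1276 others (medians 0.048 and -0.019, lowest -0.37 and -0.52). The main fit leaves out any structure by number, and the replicate block includes it. Olfactory bulb marker levels (log2) went with the number in HT-labelled libraries, at 4.99 to 6.11 for number 1 and 9.41 to 10.6 for number 4.

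Counts of all genes called moved more. Fluoxetine's 11 was 1 to 41 across alternatives and 4 to 74 without 1 library; lithium's 742 was 483 to 1461. Fluoxetine's 32 in WT-labelled libraries was 0 to 159 (9 to 230 without 1 library), lithium's 40 in HT-labelled 0 to 177 (12 to 63), and lithium's 36 in WT-labelled 16 to 234 (10 to 56). The 26 genes called between the sexes were 12 with vehicle libraries alone. The largest shift of the all-gene median under TMM scaling was 0.0036. Within 1 treatment and sex, the SE of a member's HT minus WT difference was 0.047 to 0.092.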
